A study of Rattus norvegicus with 6 samples.

Results

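The genes of Wnt signaling were compared between cultures of rat oligodendrocyte progenitor cells (OPCs) that had received fibrinogen and unstimulated cultures. The genes were chosen by symbol: the Wnt ligands and Porcn, the frizzled, Lrp5, Lrp6, Ror and Ryk receptors, the Sfrp, Frzb, Dkk, Wif1 and Notum inhibitors, the R-spondins with their Lgr receptors and Rnf43, the Axin, Apc, Gsk3, Dvl and Nkd genes of the cytoplasmic relay, and the Lef1, Tcf7 and Tle genes of the nucleus. Of 13355 measured genes, 65 carried such a symbol. Fzd6 carried one too but had no value on any array. Some known genes of the pathway, such as Tcf7l2, Wnt7a, Znrf3, Apcdd1 and Sp5, are not analysed here.

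OPCs are the dividing glial cells from which the myelin-forming oligodendrocytes arise, and fibrinogen is the plasma protein that forms clots and enters the brain where vessels leak. The fibrinogen group consisted of 3 arrays of cells held for 48 h with fibrinogen in differentiation medium. The control group consisted of 3 arrays of cells labelled unstimulated at the same 48 h, and their medium is not stated. Any difference in medium between the groups cannot be told apart from fibrinogen here. In both groups the cells came from neonatal pups of postnatal day 1 to 2 and had spent 2 days in medium with PDGF and NT3. Strain and genotype are not given in the labels. Nothing in the labels says whether the 3 arrays of a group came from separate cultures or litters, so the p-values measure the spread between these arrays, which may be technical. The series title names BMP signaling and remyelination as the questions of the study.

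Wnt proteins are lipid-bearing secreted ligands that bind frizzled receptors together with Lrp5 or Lrp6. In the canonical branch this stops the complex of Axin, Apc and Gsk3 from marking beta-catenin for destruction, and beta-catenin then enters the nucleus and displaces the Tle co-repressors from Lef/Tcf factors at target genes. R-spondins, bound by Lgr4, Lgr5 or Lgr6, raise the amount of frizzled at the surface by removing the ligases Rnf43 and Znrf3. In mice, strong beta-catenin activity in OPCs delays their maturation, while the Lef/Tcf factor Tcf7l2 is also needed for oligodendrocytes to form.

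Values are the authors' log2 expression levels, 1 per probe set and array. A change is the mean of the fibrinogen arrays minus the mean of the control arrays on that scale. A gene passed when its adjusted p in limma, over all 13355 genes, was below 0.05. Of the 65 Wnt genes, 4 rose (Sfrp1, Lrp5, Sfrp4 and Tle3), 4 fell (Lgr4, Rspo2, Lgr5 and Tle4) and 57 did not pass. The 8 that passed are 12.3% of the members, against 7.16% of all genes tested (4.16% higher and 3.00% lower). With each array centred on its median the split over all genes was 434 higher and 516 lower, against 555 and 401 as reported, and the Wnt genes had 3 higher and 5 lower. The median change was -0.02 over the members and 0.0033 over all genes. In 26 of the 65 members the fibrinogen and control arrays did not overlap, 13 above and 13 below, where 27.0% of all genes did not overlap. Every change among the members stayed under 2-fold.

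**Figure D1:**
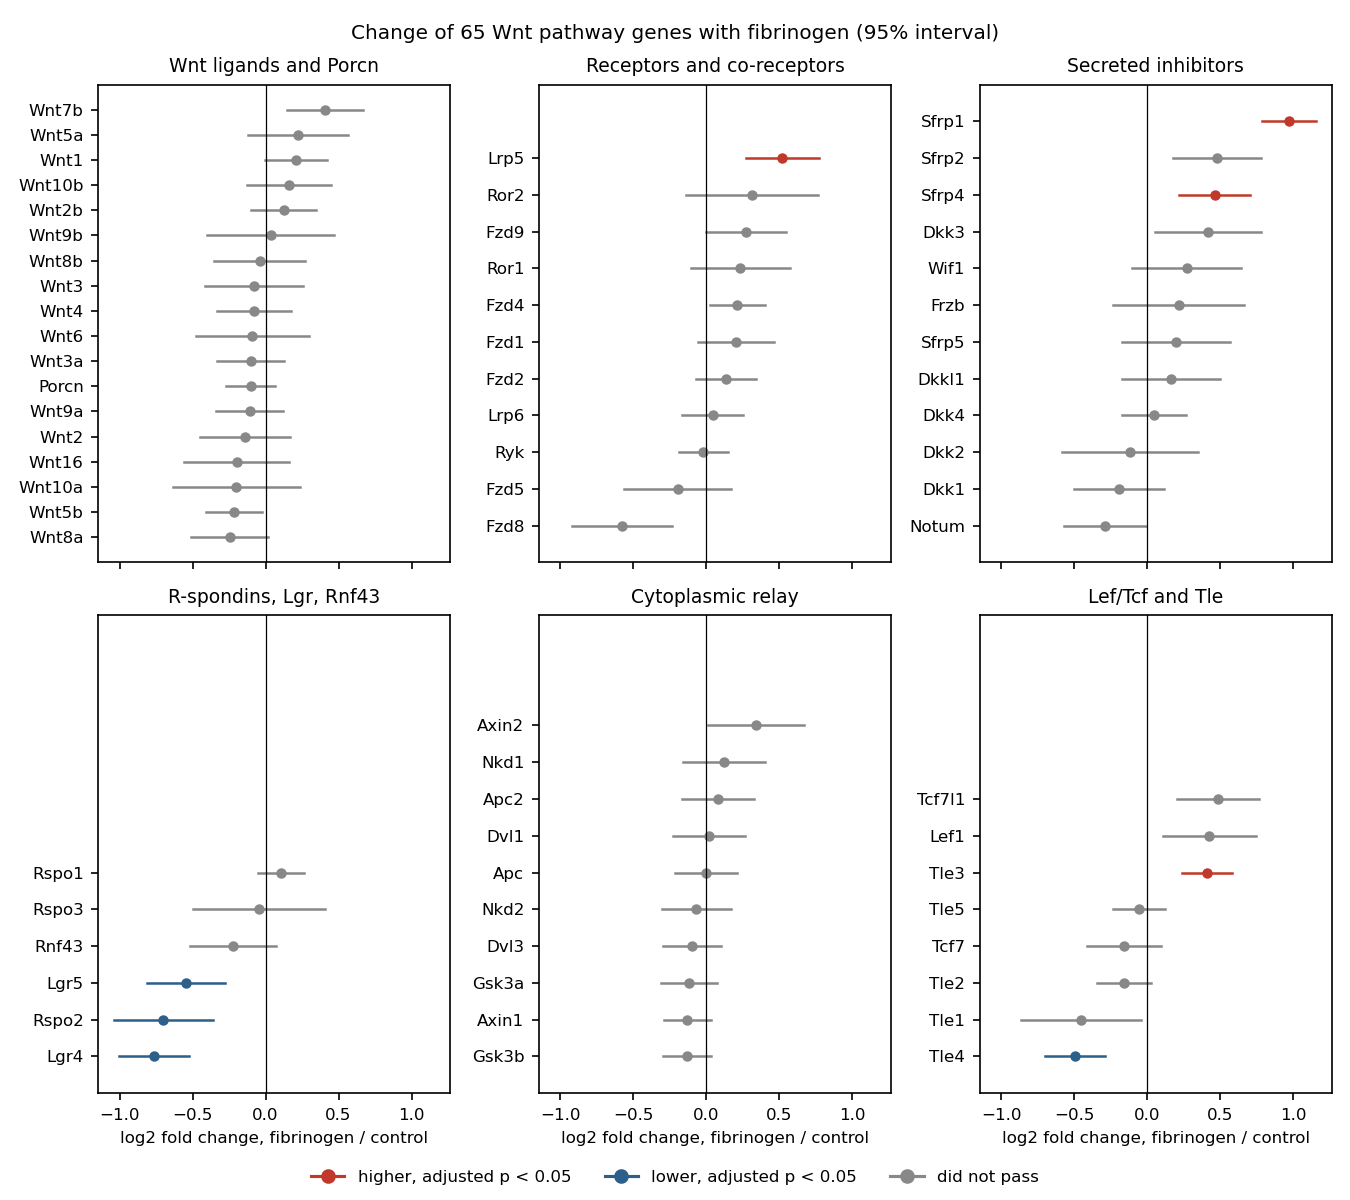
Log2 fold change of fibrinogen over control (horizontal axis) for each of the 65 Wnt genes, grouped by role, with the 95% interval as a line. Red points rose, blue points fell and grey points did not pass; Sfrp1 at 0.97 lies highest and Lgr4 at -0.76 lowest.

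Markers of the labelled cell type and of other cell types were compared with the median probe. In control arrays all 7 measured progenitor markers, among them Pdgfra, Cspg4, Olig1 and Sox10, lay above the median probe. Below the median probe lay 11 of 12 microglia markers, 8 of 10 fibroblast and pericyte markers and all 7 endothelial markers, but only 3 of 12 neuron markers, 1 of 10 astrocyte markers and 1 of 10 oligodendrocyte markers. Several lists differed between the groups, where 7.16% of all genes tested passed. Of 10 astrocyte markers 5 rose and 5 did not pass, and 4 of the 10 changes were negative (lowest Aqp4, log2 fold change -0.24). The mean log2 level of the whole list was 8.12 to 8.13 on fibrinogen arrays, against 7.79 to 7.81 on control arrays. Of 10 markers of maturing oligodendrocytes 7 fell, with mean levels of 9.10 to 9.17 on fibrinogen arrays, against 9.56 to 9.61 on control arrays. Of 7 progenitor markers 4 rose and 3 did not pass, and Gpr17 and Sox10 had negative changes (log2 fold changes -0.14 and -0.09). The mean level of this list was 10.26 to 10.30 on fibrinogen arrays, against 9.89 to 9.96 on control arrays. Of 12 microglia markers 2 fell (4.30 to 4.35 on fibrinogen arrays, 4.45 to 4.63 on control arrays). Of 12 neuron markers 2 rose and 2 fell (6.89 to 6.97 on fibrinogen arrays, 6.95 to 7.10 on control arrays). Of 10 fibroblast and pericyte markers 2 rose, namely Cspg4 (log2 fold change 0.63), which is also on the progenitor list, and Mgp (1.59). The other 8 did not pass, and the mean level of this list was 5.17 to 5.28 on fibrinogen arrays, against 5.05 to 5.09 on control arrays. Limma called 0 of the 7 endothelial markers, and 0 had an unadjusted p below 0.05. The part of these shifts in the Wnt gene results was not tested. In bulk RNA, fewer cells of a type and less RNA per cell cannot be told apart.

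Of the inhibitors that act outside the cell, 12 were measured. In this group 2 rose, where 4.16% of all genes tested rose. The other 10 did not pass, 9 of the 12 had a positive change, and the median change was 0.21. Sfrp1 encodes a secreted protein with the ligand-binding domain of the frizzled receptors, which can hold Wnt ligands away from them. Its log2 level (probe set 10792344) was 8.57, 8.41 and 8.60 on the fibrinogen arrays, against 7.55, 7.56 and 7.56 on the control arrays. All fibrinogen arrays lay far above the nearly identical control arrays. The means were 8.53 ± 0.10 with fibrinogen and 7.56 ± 0.01 in control (SD, n = 3 each), a 1.96-fold rise (0.97 ± 0.08 SE in log2 units, adjusted p = 0.00166). It was the 45th largest upward change of all genes tested. Without any single array the adjusted p of Sfrp1 stayed between 0.00835 and 0.0156.

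Sfrp4, another secreted frizzled-related gene (10798610), stood at 5.34, 5.03 and 5.01 on the fibrinogen arrays, against 4.67, 4.64 and 4.68 on the control arrays. The groups did not overlap, fibrinogen 1 stood apart from the other treated arrays, and both group means were dimmer than the median probe. The rise was 1.38-fold (0.46 ± 0.10 SE in log2 units, adjusted p = 0.0431). This call did not hold after the arrays were centred on their medians (adjusted p = 0.0597) or without any single array (adjusted p = 0.0819 to 0.108). Sfrp2 (10816144) had 7.69, 7.87 and 7.86 with fibrinogen, against 7.09, 7.56 and 7.34 in control. Its groups were also separate, the control arrays were spread more widely, and 0.05 was missed (log2 fold change 0.48, 95% interval 0.18 to 0.78, adjusted p = 0.0756). Sfrp2 passed without control 2 (adjusted p = 0.0435), under both dimness filters (0.0459 without the dimmest 25% of genes, 0.0217 without those below the median level) and with a variance model that follows the expression level, here called trended (0.0134). The median level of this filter is the median over genes, 6.325, and lies above the median probe, 5.81. Sfrp5 and Frzb, the remaining members of this family, had changes of 0.20 and 0.22, with overlapping arrays and intervals that include 0. All 5 genes of the family thus had positive changes, of which 2 passed.

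The dickkopf genes encode secreted proteins, of which Dkk1 blocks Lrp5 and Lrp6. Limma called 0 of the 5 measured, and 1 (Dkk3) had an unadjusted p below 0.05. Dkk3, a divergent member of this family, had 6.34, 6.53 and 6.68 on the fibrinogen arrays, against 5.79, 6.20 and 6.31 on the control arrays. The lowest treated array lay just above the highest control array (log2 fold change 0.42, 95% interval 0.06 to 0.78, adjusted p = 0.174). Dkk1, itself a beta-catenin target, was at -0.19 (95% interval -0.50 to 0.11), and Dkk4 at 0.04, or -0.0033 with the arrays centred on their medians. Wif1, which binds Wnt ligands directly, had 5.42, 5.07 and 4.79 with fibrinogen, against 4.95, 4.71 and 4.81 in control, and the groups overlapped (log2 fold change 0.27, adjusted p = 0.403). Notum, an enzyme that strips the lipid from Wnt proteins, was at -0.29 (adjusted p = 0.228) at dim levels of 3.56 ± 0.02 with fibrinogen and 3.85 ± 0.23 in control (SD, n = 3 each).

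The R-spondin group held 5 R-spondin and Lgr genes and Rnf43. In this group 3 of 6 genes fell, where 3.00% of all genes tested fell, and 5 changes were negative, with a median of -0.385. Lgr4, a receptor for R-spondins (10838354), had log2 levels of 7.10, 7.11 and 7.26 on the fibrinogen arrays, against 8.03, 7.99 and 7.74 on the control arrays. The groups lay well apart, with means of 7.16 ± 0.09 with fibrinogen and 7.92 ± 0.16 in control (SD, n = 3 each). Lgr4 fell by 0.76 ± 0.10 SE in log2 units (adjusted p = 0.00705), which is 1.70-fold lower. This was the 73rd largest downward change of all genes tested. The adjusted p of Lgr4 stayed between 0.0143 and 0.0419 without any single array.

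Lgr5, the sister receptor known as a stem cell marker of the intestine and itself a beta-catenin target (10902420), had 5.33, 5.14 and 5.46 with fibrinogen, against 5.81, 5.74 and 6.02 in control. It fell by 0.55 ± 0.11 SE in log2 units (adjusted p = 0.0345), with no overlap between groups. Rspo2, a ligand of these receptors (10903538), had 4.87, 4.87 and 4.99 with fibrinogen, against 5.69, 5.29 and 5.85 in control. The treated arrays were close together and all below the control arrays, which differed among themselves by more. Rspo2 fell by 0.70 ± 0.14 SE in log2 units (adjusted p = 0.0323), and its levels lay below the median probe in both groups. The call of Lgr5 was lost without any single array (adjusted p = 0.0539 to 0.109), and that of Rspo2 unless the array left out was control 2 (up to 0.115, when fibrinogen 1 was omitted).

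The other members of this branch did not pass. Rspo1 had a small positive change of 0.11 with very tight groups, at 5.59 ± 0.01 with fibrinogen and 5.48 ± 0.02 in control (SD, n = 3 each; adjusted p = 0.431). Rspo3 was at -0.04 (95% interval -0.49 to 0.41). Rnf43, the ligase that removes frizzled receptors and is itself induced by beta-catenin, was at -0.22 (95% interval -0.52 to 0.07).

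**Figure D2:**
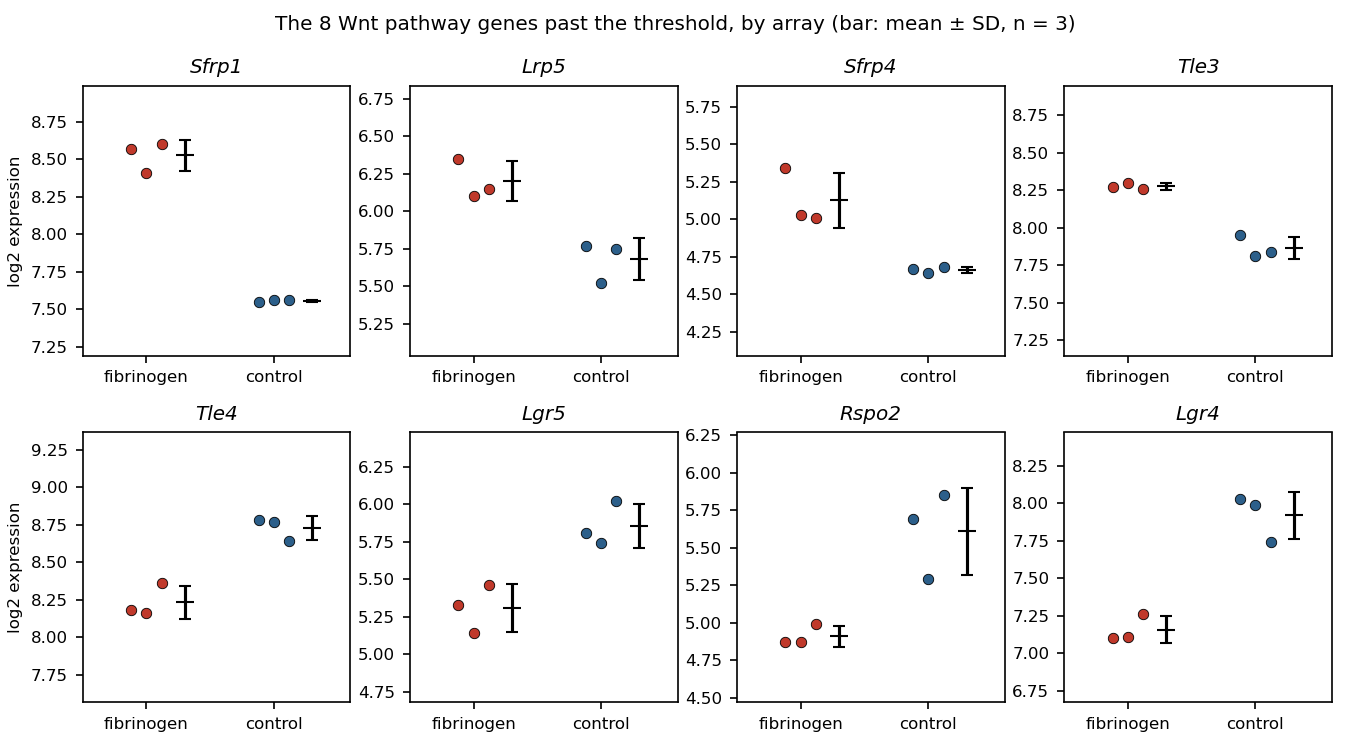
Log2 expression (vertical axis, each panel spanning the same range) of the 8 Wnt genes that passed, with 1 point per array and the mean ± SD (n = 3) as a bar, fibrinogen in red and control in blue. In each panel the 3 fibrinogen arrays lie entirely above or entirely below the 3 control arrays, and Sfrp1 shows the widest gap.

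Among 11 receptor genes 1 rose (4.16% of all genes tested did), 10 did not pass, and 8 changes were positive (median 0.20). Lrp5, the co-receptor that pairs with frizzled in the canonical branch (10727349), had 6.35, 6.10 and 6.15 on the fibrinogen arrays, against 5.77, 5.52 and 5.75 on the control arrays. The groups did not overlap, and the control mean lay slightly below the median probe. The rise was 1.43-fold (0.52 ± 0.11 SE in log2 units, adjusted p = 0.0315), a call that was lost without any single array (adjusted p = 0.0568 to 0.104). Its close relative Lrp6 was at 8.06 ± 0.12 with fibrinogen and 8.02 ± 0.07 in control (SD, n = 3 each), a change of 0.04 with a 95% interval of -0.17 to 0.25, which turned to -0.0033 when the arrays were centred on their medians. The difference between Lrp5 and Lrp6 was not tested.

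Limma called 0 of the 6 frizzled genes, and 3 had an unadjusted p below 0.05. Fzd8 had 5.59, 5.29 and 5.42 with fibrinogen, against 5.82, 6.31 and 5.91 in control. These groups were separate, with control 2 the highest array (log2 fold change -0.58, 95% interval -0.92 to -0.24, adjusted p = 0.0607). Fzd8 was called lower after array centring (adjusted p = 0.0461), after renewed quantile normalization (0.0433), without the dimmest 25% of genes (0.0368), with the trended variance model (0.0220) and with array weights (0.0441). Fzd4, the receptor of the vascular ligand norrin as well as of Wnts, was at 0.21 (95% interval 0.02 to 0.40, adjusted p = 0.188) with no overlap. Fzd9, Fzd1 and Fzd2 had changes of 0.27, 0.20 and 0.13, and Fzd5 of -0.20, all with overlapping arrays. Ror1 and Ror2, tyrosine kinase-like receptors of the beta-catenin-independent branch, were at 0.23 and 0.31, and Ryk was at -0.02 (95% interval -0.19 to 0.15).

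No Wnt ligand gene passed in limma: 0 of 17 were called, 2 had an unadjusted p below 0.05, and 11 changes were negative. In control arrays 15 of the 17 lay below the median probe, and with no detection call it is unknown whether such probes lie above background. Wnt7b, a ligand that OPCs are known to use on blood vessels of the developing brain in mice, lay above the median probe together with Wnt6. It had 7.12, 7.13 and 7.29 on the fibrinogen arrays, against 6.99, 6.67 and 6.66 on the control arrays. All treated arrays lay above all control arrays, with control 1 the closest. The change of 0.41 missed the threshold (SE 0.11, 95% interval 0.14 to 0.67, adjusted p = 0.0816), and it passed without control 1 (adjusted p = 0.0321), under both dimness filters (0.0487 and 0.0228), with the trended variance model (0.0314) and with array weights (0.0370).

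Wnt5a, the main ligand of the beta-catenin-independent branch, had 5.56, 5.56 and 5.62 with fibrinogen, against 5.55, 5.51 and 5.01 in control. All fibrinogen arrays lay above all control arrays, but only just above control 1, and control 3 stood far below the others (log2 fold change 0.22, 95% interval -0.12 to 0.57). Its relative Wnt5b was at -0.22 (95% interval -0.41 to -0.03, adjusted p = 0.179), and Wnt1 was at 0.21 (adjusted p = 0.254), both without overlap. The remaining Wnt ligands had changes between -0.25 (Wnt8a) and 0.16 (Wnt10b). Porcn, the enzyme that attaches the lipid to all Wnt proteins, was at 8.47 ± 0.05 with fibrinogen and 8.57 ± 0.04 in control (SD, n = 3 each; log2 fold change -0.10, adjusted p = 0.484).

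The changes in the cytoplasmic relay were small, with a median size of 0.11 on the log2 scale. Limma called 0 of its 10 members, 1 had an unadjusted p below 0.05 (Axin2), and the changes other than that of Axin2 lay between -0.13 and 0.12. Gsk3b, the kinase that marks beta-catenin, had 10.55 ± 0.04 with fibrinogen and 10.68 ± 0.03 in control (SD, n = 3 each; log2 fold change -0.13, 95% interval -0.30 to 0.03). Axin1, the scaffold of the destruction complex, was also at -0.13 (95% interval -0.29 to 0.03), and Apc had a mean of 8.22 in both groups. Gsk3a, Dvl3, Dvl1, Apc2 and Nkd2 had intervals that include 0. These transcripts say nothing of the protein levels or of the phosphorylation through which the relay works.

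Many members are themselves induced by beta-catenin in other tissues, and several of these restrain the pathway. Of 9 such members measured (Axin2, Nkd1, Lef1, Tcf7, Lgr5, Rnf43, Notum, Dkk1 and Dkk4), 1 fell (Lgr5), 8 did not pass, and 4 changes were positive and 5 negative. Axin2, the most widely used readout of the pathway (10739302), had 7.12, 6.68 and 7.02 on the fibrinogen arrays, against 6.53, 6.79 and 6.48 on the control arrays. Its groups overlapped, since fibrinogen 2 lay below control 2 (log2 fold change 0.34, 95% interval 0.01 to 0.67, adjusted p = 0.218). Nkd1, which binds Dvl, had 5.76, 5.74 and 6.10 with fibrinogen, against 5.66, 5.87 and 5.71 in control, and the groups overlapped (log2 fold change 0.12, adjusted p = 0.635).

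Among the nuclear members 1 of 8 rose, 1 fell and 6 did not pass, where 4.16% of all genes tested rose and 3.00% fell. The rise and the fall occurred within a single family. The Tle genes encode co-repressors of the Groucho type, which bind Lef/Tcf factors and many other repressors. Tle3 (10910641) had 8.27, 8.30 and 8.26 on the fibrinogen arrays, against 7.95, 7.81 and 7.84 on the control arrays. Tle4 (10729074) had 8.18, 8.16 and 8.36 with fibrinogen, against 8.78, 8.77 and 8.64 in control. Neither gene showed any overlap between groups, and the directions were opposite. Tle3 rose 1.33-fold (0.41 ± 0.07 SE in log2 units, adjusted p = 0.0216), and Tle4 fell by 0.50 ± 0.09 SE in log2 units (adjusted p = 0.0205). Tle3 no longer passed when any single array but control 1 was omitted, with an adjusted p of up to 0.0846 when that array was fibrinogen 2. Tle4 no longer passed when the omitted array was control 1 or 2 or fibrinogen 1 or 2, with an adjusted p of up to 0.0841 for fibrinogen 1.

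The other Tle genes did not pass. Tle1 was at 5.76 ± 0.23 with fibrinogen and 6.21 ± 0.30 in control (SD, n = 3 each), a change of -0.45 with a wide interval of -0.86 to -0.04 (adjusted p = 0.192). Tle2 was at -0.16 and Tle5, a shorter relative that lacks the repeat domain of the others, at -0.06 (95% interval -0.23 to 0.12).

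Of the 3 Lef/Tcf genes measured, limma called 0, and 2 had an unadjusted p below 0.05. Tcf7l1, a factor that acts mostly as a repressor of target genes, had 8.69, 8.95 and 8.60 on the fibrinogen arrays, against 8.42, 8.13 and 8.23 on the control arrays. Its groups did not overlap, and the change of 0.49 lay close to the threshold (SE 0.12, 95% interval 0.20 to 0.77, adjusted p = 0.0582). Tcf7l1 passed under both dimness filters (adjusted p = 0.0340 and 0.0148), with the trended variance model (0.00443) and with array weights (0.0369). Tcf7l1 was the only member with several probe sets. The other 2 had changes of 0.28 (95% interval 0.07 to 0.49) and 0.10 (95% interval -0.13 to 0.34), so all 3 were positive but differed in size. Lef1, both a factor and a target of the pathway, had 5.95, 5.75 and 6.16 with fibrinogen, against 5.69, 5.32 and 5.57 in control. The lowest treated array lay above the highest control array, at levels near the median probe (0.43 ± 0.14 SE in log2 units, adjusted p = 0.125). Tcf7 was at -0.16 (95% interval -0.42 to 0.10).

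**Figure D3:**
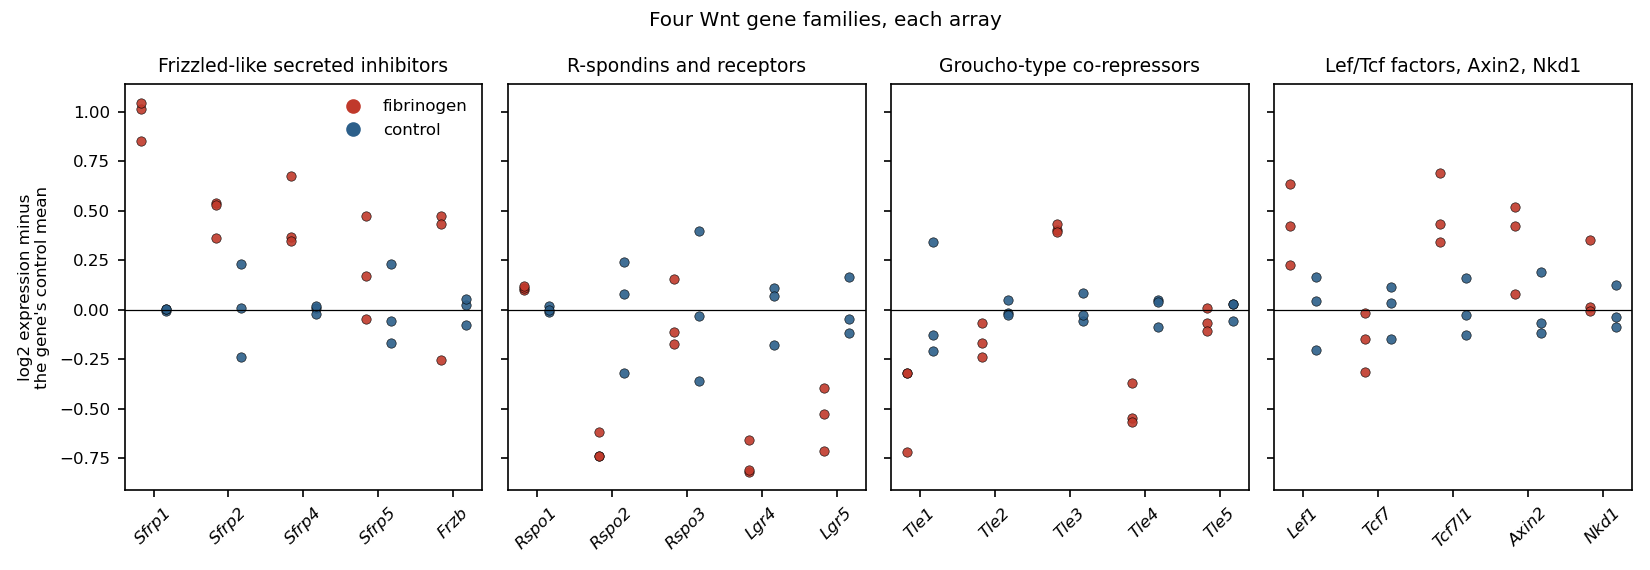
Log2 expression of each array minus the control mean of the same gene (vertical axis) for the Sfrp and Frzb inhibitors, the R-spondins with Lgr4 and Lgr5, the Tle co-repressors, and Lef1, Tcf7, Tcf7l1, Axin2 and Nkd1, with fibrinogen arrays in red left of control arrays in blue. Sfrp1, Sfrp2 and Sfrp4 sit above 0 on every fibrinogen array, Lgr4, Lgr5 and Rspo2 below 0 on every one, and Tle3 and Tle4 part in opposite directions.

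The sequence upstream of the transcription start was examined for letters that Lef/Tcf factors are known to bind. The motifs CTTTGAA and CTTTGAT were searched on both strands in the 250 bases before the start of each gene, taken from RefSeq on GRCr8. They differ in their last letter, so 1 place on a strand cannot match both. Of the 65 members 50 matched a RefSeq promoter by gene number, and 6 of these held a motif (12%), against 7.58% of 27457 promoters in the table. The members' windows were richer in G and C, with a median of 62.4%, against 52% in the table. Of the 8 genes that passed, Lgr4, Tle3 and Tle4 had a promoter in the table, and 0 of these 3 held a motif. The 3 are shown because their transcripts changed. Axin2 is shown beside them as the standard target of the pathway, and it was chosen after its values and its motifs were seen. Capitals mark the motifs, each sequence runs 5′ to 3′ on the strand of the gene, and the last base printed is the one before the start. Lgr4 is at chr3:116901718-116901967, plus strand. Tle3 is at chr8:70753527-70753776, plus strand. Tle4 is at chr1:221222827-221223076, minus strand. Axin2 is at chr10:94398535-94398784, plus strand.
Lgr4: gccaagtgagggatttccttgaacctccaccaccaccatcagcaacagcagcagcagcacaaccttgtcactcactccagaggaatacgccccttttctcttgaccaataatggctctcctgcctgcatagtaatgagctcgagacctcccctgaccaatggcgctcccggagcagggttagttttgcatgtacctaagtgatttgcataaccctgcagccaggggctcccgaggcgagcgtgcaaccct
Tle3: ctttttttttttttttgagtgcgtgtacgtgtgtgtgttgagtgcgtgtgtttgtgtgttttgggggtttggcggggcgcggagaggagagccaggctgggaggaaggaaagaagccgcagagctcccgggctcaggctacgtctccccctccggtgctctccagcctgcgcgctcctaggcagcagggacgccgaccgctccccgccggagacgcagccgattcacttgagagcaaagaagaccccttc
Tle4: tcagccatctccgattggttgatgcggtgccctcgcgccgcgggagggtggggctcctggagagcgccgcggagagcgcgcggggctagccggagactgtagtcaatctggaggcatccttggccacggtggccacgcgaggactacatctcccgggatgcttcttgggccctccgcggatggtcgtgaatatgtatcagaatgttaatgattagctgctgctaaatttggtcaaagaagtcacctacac
Axin2: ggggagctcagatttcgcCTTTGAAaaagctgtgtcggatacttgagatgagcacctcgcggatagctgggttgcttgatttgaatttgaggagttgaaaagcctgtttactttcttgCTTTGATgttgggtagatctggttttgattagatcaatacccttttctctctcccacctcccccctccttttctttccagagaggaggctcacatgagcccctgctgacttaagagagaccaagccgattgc
In Axin2 the motif CTTTGAA begins 232 bases before the start and CTTTGAT begins 132 bases before it, both on the strand of the gene. A match is a description of letters and not a bound site, and the absence of one says only that these letters are not in this window.

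Genes of the pathway that the choice of symbols left out were taken from 3 lists. Of 87 such genes measured 10 rose, 3 fell and the rest did not pass. The share that passed was 7.5% for canonical components, 26.7% for planar polarity genes and 18.8% for beta-catenin targets. Of all genes tested, 7.16% passed (4.16% higher and 3.00% lower). These lists were chosen with earlier results of these data known. In the list of canonical components 3 of 40 rose, 0 fell in limma, and 11 had an unadjusted p below 0.05 in either direction. The median change was -0.01, and Pygo2, a nuclear partner of beta-catenin, came nearest to the threshold among those that did not pass (log2 fold change -0.34, adjusted p = 0.0671). Ctnnb1, the gene of beta-catenin itself, had 10.63, 10.67 and 10.72 on the fibrinogen arrays, against 10.13, 10.34 and 10.25 on the control arrays. The groups did not overlap, and Ctnnb1 rose 1.35-fold (0.43 ± 0.08 SE in log2 units, adjusted p = 0.0259). It no longer passed when any single array but control 2 was omitted, with an adjusted p of up to 0.0976 for fibrinogen 3.

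The other 2 canonical genes that rose are related inhibitors that bind Dvl. Cxxc4 had 6.76, 6.90 and 6.86 with fibrinogen, against 5.91, 6.31 and 5.88 in control, a 1.75-fold rise (0.81 ± 0.13 SE in log2 units, adjusted p = 0.0124). Cxxc5 had 9.48, 9.44 and 9.45 with fibrinogen, against 8.84, 9.01 and 9.07 in control, a 1.40-fold rise (adjusted p = 0.0193). Both pairs of groups were fully separate, by wider margins for Cxxc4. The call of Cxxc4 was lost without fibrinogen 2 or fibrinogen 3 (adjusted p = 0.0575 and 0.0547), and that of Cxxc5 without any fibrinogen array (adjusted p = 0.0686 to 0.0796). Wls, which carries Wnt proteins to the cell surface, was at -0.10 (95% interval -0.27 to 0.07); it was chosen after its values were seen.

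Of 15 planar polarity genes, which orient cells without beta-catenin, 3 rose, 1 fell and 11 did not pass (median change 0.02). Celsr2 and Celsr3, large cadherins of this branch, rose 1.61-fold and 1.58-fold (log2 fold changes 0.68 and 0.66, adjusted p = 0.00907 and 0.0365). Celsr2 had 6.88, 6.75 and 6.67 with fibrinogen, against 6.01, 6.01 and 6.23 in control. Fjx1, the relative of a fly polarity kinase, rose 1.33-fold (adjusted p = 0.0220). Prickle1, a cytoplasmic protein of the branch, fell by 0.67 ± 0.13 SE in log2 units (adjusted p = 0.0246), with 6.14, 6.02 and 6.01 on the fibrinogen arrays, against 6.47, 6.77 and 6.94 on the control arrays. Neither Celsr2 nor Prickle1 showed overlap between groups. Celsr2 kept its call without any single array (highest adjusted p = 0.0441) but lost it with the replicate number as a block (0.0516). The calls of Fjx1 and Prickle1 were lost without any single array other than control 1 (highest adjusted p = 0.0879 and 0.0928), and that of Celsr3 without any single array other than control 2 (highest adjusted p = 0.122).

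Of 32 transcripts often used as beta-catenin targets in other tissues, 4 rose, 2 fell and 26 did not pass (median change 0.07). Ccnd2, a G1 cyclin, had 8.97, 8.99 and 9.19 with fibrinogen, against 8.06, 8.10 and 8.28 in control, a 1.87-fold rise (0.90 ± 0.10 SE in log2 units, adjusted p = 0.00392). Cd44, the hyaluronan receptor, rose 1.65-fold with the same adjusted p. Both genes kept their call without any single array (highest adjusted p = 0.0219 for Ccnd2 and 0.0252 for Cd44). The cyclin gene Ccnd1 rose 1.28-fold (adjusted p = 0.0372) and the adhesion gene Nrcam 1.47-fold (adjusted p = 0.0449). The call of Ccnd1 was lost without any single array (adjusted p = 0.0641 to 0.130) and that of Nrcam without any single array other than control 1 (highest adjusted p = 0.143). Neither call held after the arrays were centred on their medians (adjusted p = 0.0582 for Ccnd1 and 0.0644 for Nrcam).

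Bmp4, a BMP ligand, fell by 0.45 (adjusted p = 0.0133) and Tnfrsf19, a TNF receptor family member, by 0.44 on the log2 scale (adjusted p = 0.0481). Bmp4 no longer passed when control 3 or a fibrinogen array was omitted (adjusted p up to 0.0616), and Tnfrsf19 when any array but control 1 was omitted (up to 0.159). Myc, a proto-oncogene and classical target, had 9.45, 9.47 and 9.35 with fibrinogen, against 9.66, 9.67 and 9.54 in control. Its treated arrays all lay below its control arrays, and the change of -0.20 did not pass (95% interval -0.38 to -0.02, adjusted p = 0.198). Myc was called lower with the trended variance model (adjusted p = 0.0373). All of these targets are known to answer to other signals as well.

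**Figure D4:**
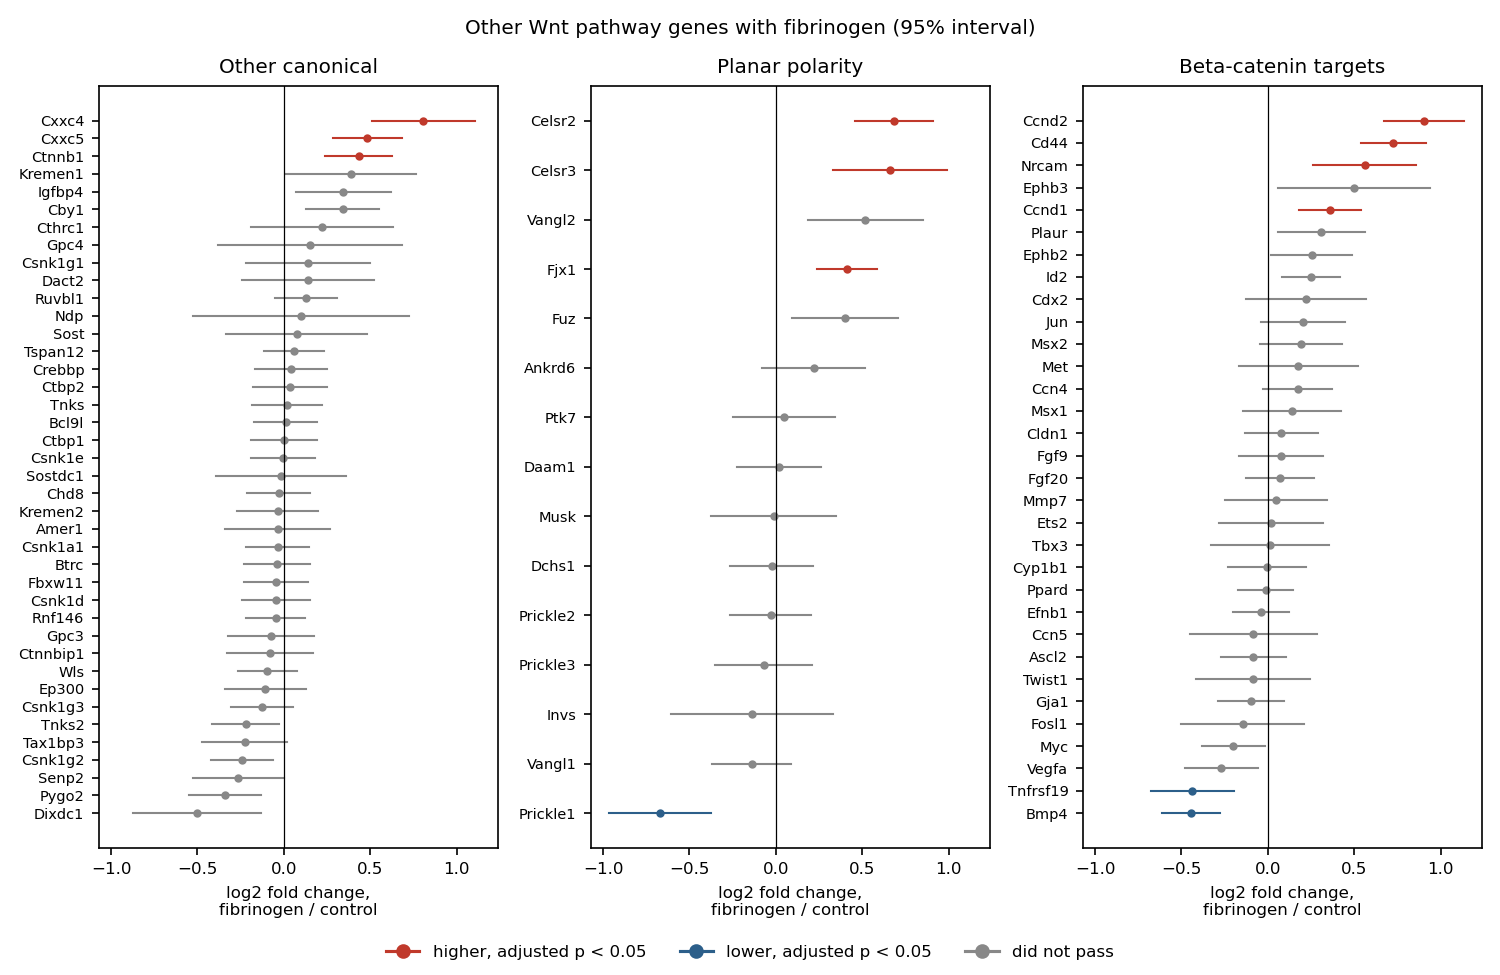
Log2 fold change of fibrinogen over control (horizontal axis) with its 95% interval for 40 other canonical genes, 15 planar polarity genes and 32 transcripts often used as beta-catenin targets; red rose, blue fell and grey did not pass. Most intervals cross 0, and Ccnd2 at 0.90 and Cxxc4 at 0.81 lie highest.

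The calls differed in how firmly they were held. Of the 8 Wnt genes that passed, 2 (Sfrp1 and Lgr4) kept their call under all 14 alternative settings, and 3 (Lrp5, Sfrp4 and Lgr5) lost it whenever any single array was left out. Sfrp4, Lrp5, Lgr5 and Rspo2 were not tested in the setting without genes below the median level of all genes (6.325). None of the 8 changed direction in a setting that tested it, although the dimness filters, the other variance model and the block leave a fold change as it is. The share of all genes that passed fell as well when an array was left out, to between 2.68% and 4.43%.

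**Figure D5:**
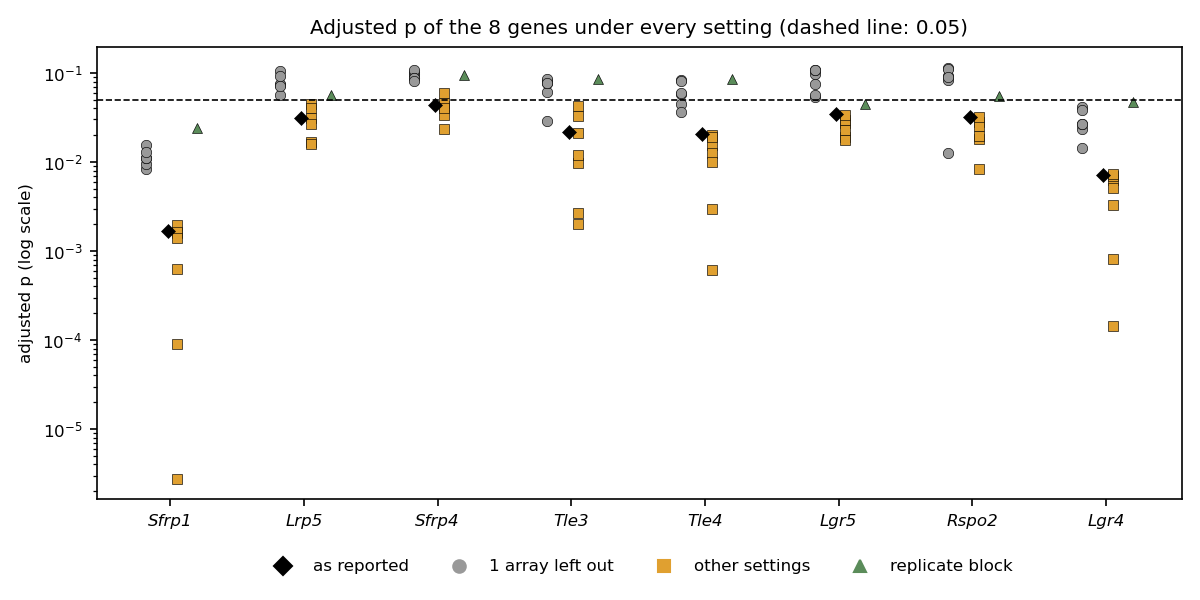
Adjusted p (vertical axis, log scale) of the 8 Wnt genes that passed, as reported (black diamonds), with 1 array left out (grey circles), with the replicate number as a block (green triangles) and under the other settings (orange squares). Sfrp1 and Lgr4 lie below the dashed line at 0.05 throughout, whereas every grey circle of Lrp5, Sfrp4 and Lgr5 lies above it.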

How the data were processed

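Per the labels' protocols, total RNA went through NuGEN amplification and biotin labelling for expression arrays. The authors deposited log2 expression values; the submitters' processing notes name RMA and limma, and versions, settings and build are not given in the sources used here. RMA is known to compress large changes of dim probes. Array medians lie between 5.78 and 5.84. Of 26312 probe rows 23631 had values, and 14083 of these carried 1 symbol in the platform annotation. The brightest probe set stood for each of 13355 genes. All 65 members matched a current rat gene record under the same symbol. Groups were compared with limma 3.58.1 in R 4.3.3 by a two-sided moderated test without covariates or a filter on dim genes, with Benjamini-Hochberg adjustment over all genes and a threshold of 0.05, and the fit was tested on simulated data. The median standard error over the members was 0.11, and the number of arrays limits the precision. Members, lists and settings were chosen with earlier results of these data known. Named were the members past the threshold, the 3 of smallest p in each role, and fixed lists of feedback genes and key components; others were chosen after their values were seen. The alternatives were array centring, renewed quantile normalization, 2 dimness filters, probe averaging, another variance model, array weights, a replicate block and leaving out each array.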

Additional observations from a re-analysis of the deposited data

How the results depend on the processing

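No Wnt gene that passed changed direction in a setting that tested it. Sfrp4, Lrp5, Lgr5 and Rspo2 were not tested without the genes below the median level, and the dimness filters, trended model and block leave a fold change as it is. The counts of Wnt genes, 4 higher and 4 lower, became 7 higher without the dimmest 25% of genes, 2 lower without the genes below the median level (where 20 members remained) and 7 higher with the trended, robust variance model. The cause of these different counts was not tested, and the filtered fits held fewer genes. The genes added in these settings were among Wnt7b, Sfrp2, Tcf7l1 and Fzd8. Fzd8 was also added by centring and by renewed quantile normalization, and Fzd8, Tcf7l1 and Wnt7b by array weights. The share of Wnt genes that passed, 12.3% as reported, was 21.1% and 35% under the 2 dimness filters and 18.5% with the trended model. The share of all genes that passed rose as well, from 7.16% to 12.9%, 21.8% and 12.1% in the same order. Over all genes, 555 higher and 401 lower became 627 lower without the genes below the median level, and 928 higher and 689 lower with the trended model. The other pathway genes, 10 higher and 3 lower, had 6 lower in both of these settings. Centring the arrays moved the median change of all genes to -0.04, and 434 were then higher and 516 lower.

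Same-numbered arrays did not deviate together (correlations of 0.02, -0.14 and -0.07), and fibrinogen 3 correlated best with control 2 (0.17). With 3 arrays per group, these correlations cannot show whether same-numbered arrays share a culture or litter, which the labels do not state. With the replicate number as a block, 1 Wnt gene was higher and 2 lower, 199 and 144 of all genes, and 3 and 0 of the other pathway genes; 5 of the 8 Wnt calls were lost. With 1 array left out, the Wnt genes ranged from 1 to 3 higher and 1 to 2 lower, all genes from 208 to 379 higher and 150 to 239 lower, and the other pathway genes from 3 to 7 higher and 0 to 3 lower. Those fits hold fewer arrays. Changes near 0 that had not passed turned sign. After centring Lrp6 and Dkk4 were both at -0.0033, and after quantile normalization Lrp6 was at -0.0025. With 1 array left out Lrp6 ranged from -0.0217 to 0.0933. Dim probes, which include 33 of the 65 members in control arrays, are limited by their unknown distance from background.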
